A study of Mus musculus with 4 samples.

Results

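The collagen chain genes are the genes whose symbols have the form Col, a type number, a and a chain number. They were found by that pattern, and 36 of the 13772 genes in the tables matched, among them 9 fibrillar chains (types I, II, III, V and XI), 7 basement membrane chains (types IV, XV and XVIII), the 3 type VI chains and 17 others. Collagens are secreted as trimers of alpha chains wound into a triple helix, and each chain has its own gene. Fibrillar collagens form the load-bearing fibres of connective tissue, type IV collagen forms the sheet of basement membranes, and type VI collagen forms beaded filaments beside it. In skeletal muscle the stem cells, or satellite cells, lie under the basement membrane of the fibre, and in mice type V and type VI collagen are known parts of their niche.

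The study profiled single cells by droplet 3' RNA sequencing after muscle stem cells from skeletal muscle of WT C57BL/6 mice had spent 7 days on polydimethylsiloxane, a silicone rubber, in medium with 10% fetal bovine serum. Its title names matrix stiffness, RNA decay and the fate of aged muscle stem cells. The 4 libraries were aged cells on stiff (29 kPa), aged cells on soft (12 kPa), young cells on stiff (29 kPa) and young cells on soft (12 kPa) substrate, and each such list of values below follows this order. The labels give neither the ages in months nor the number of mice, each group is 1 library, and all groups shared the medium and the culture time. Differences between libraries therefore have no replicate check, and their 95% intervals cover counting error only.

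After filtering, 1738, 1333, 1479 and 1360 cells remained, with 68223834, 47504692, 43961910 and 50362110 unique molecular identifiers (UMIs, molecules counted once each) and medians of 37081, 33315, 28613 and 35608 UMIs per cell. A level is the mean over cells of CPM, a gene's UMIs scaled to the same total in every cell. With 3' counting it follows the number of molecules and not transcript length. Cells were split by Myog, the transcription factor that marks the onset of muscle differentiation, at a log2(CPM + 1) of 7. The Myog-high share was 84.9%, 79.7%, 62.3% and 61.3% (exact binomial intervals 83.1 to 86.5%, 77.4 to 81.8%, 59.7 to 64.7% and 58.7 to 63.9%). Between 4.12% and 6.25% of cells lay within 1 log2 unit of the Myog limit. Myog-high cells held more UMIs, with medians of 38923, 35845, 31272 and 38733, against 24341, 23301, 23960 and 30911 in Myog-low cells.

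The muscle stem cell label was checked against markers. In Myog-low cells Pax7, the satellite cell transcription factor, averaged 160, 160, 151 and 159 CPM, and the myoblast factor Myod1 averaged 632, 724, 779 and 679 CPM. The summed level of 3 endothelial genes was at most 0.505 CPM in either class of any library, that of 6 immune genes at most 7.89 CPM, and that of 4 Schwann cell genes at most 5.58 CPM. Of the fibroblast genes, Pdgfra reached at most 1.46 CPM and Dcn at most 5.50 CPM, and Lum was at 0 in the Myog-low cells of 3 of the 4 libraries. Gsn and Thy1, which other cells also express, made up most of the summed level of 8 fibroblast genes in Myog-low cells, which was 451, 462, 273 and 261 CPM. Only 17, 14, 16 and 20 cells held UMIs of 3 or more of these genes. Some markers listed for other cell types were present. Of the pericyte and smooth muscle genes, Acta2 was by far the highest, with 1595, 1469, 1496 and 1394 CPM in Myog-low cells. In Myog-high cells it had 1456, 1686, 1918 and 1847 CPM. Pdgfrb had 60.3, 67.4, 68.3 and 63.2 CPM and Notch3 had 121, 112, 146 and 148 CPM in Myog-low cells. Rgs5 reached at most 17.3 CPM and Myh11 at most 0.460 CPM. The adipocyte gene Lpl had 136, 109, 166 and 164 CPM in Myog-low cells. Of the tenocyte genes, Scx had 347, 357, 246 and 210 CPM in Myog-high cells, and Tnmd was at 0 in 3 libraries. Of the cell barcodes, 1 was shared between the aged stiff and young soft libraries and 0 between the other pairs.

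Of the 36 chain genes, 16 reached a mean of 10 CPM over the 4 libraries, and they held nearly all of the collagen signal. Their mean levels summed to 895 CPM, against 32.0 CPM for the other 20. Col3a1, the chain of the type III homotrimer, stood at the top with 81.2, 101, 224 and 238 CPM. It was lowest in aged cells on stiff and highest in young cells on soft substrate. Next came Col25a1, a transmembrane collagen made by muscle that motor axons need to enter the muscle in mice, with 97.3, 89.1, 110 and 110 CPM, which lay close together. Col4a1, the chain that enters most type IV trimers, had 40.3, 49.6, 118 and 135 CPM, so that both aged libraries lay below both young ones. The 36 chains together summed to 596, 703, 1177 and 1233 CPM. By group, the sums were 222, 283, 471 and 494 CPM for fibrillar chains, 69.5, 85.8, 202 and 228 CPM for basement membrane chains, 69.2, 81.9, 203 and 199 CPM for type VI chains, and 235, 252, 302 and 310 CPM for the others.

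**Figure D1:**
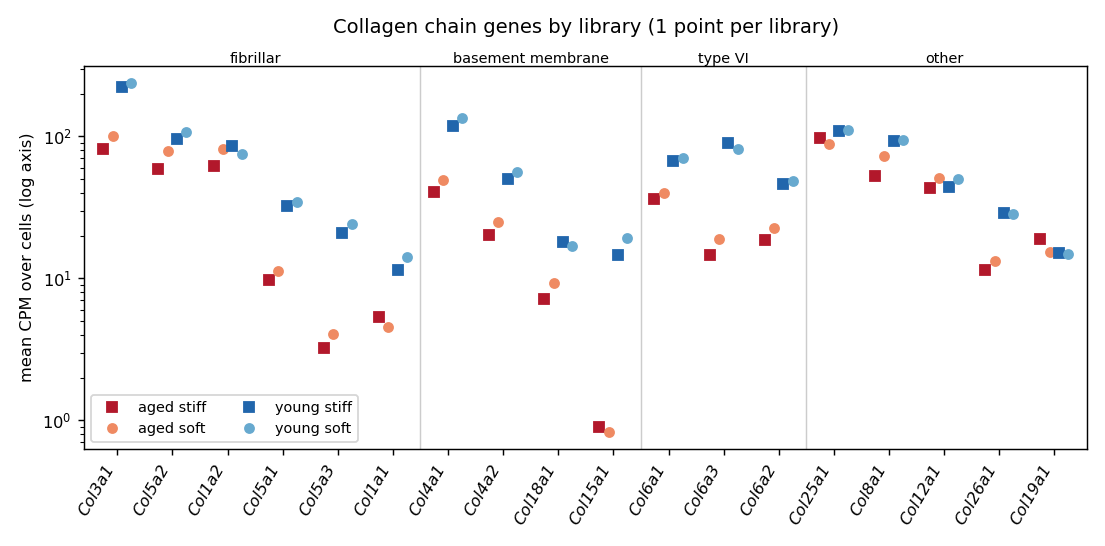
Mean CPM over cells on a log axis, 1 point per library and gene, for the 16 chain genes with a mean of at least 10 CPM and for Col1a1 and Col15a1 below it. The aged points (red, orange) lie under the young points (blue) for most fibrillar, basement membrane and type VI chains, and the 4 points of Col25a1, Col12a1 and Col19a1 lie close together.

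The 20 chain genes under that level had a median of 0.767 CPM, and 13 of them were under 1 CPM. The highest of these were Col15a1 at 8.90 CPM, Col1a1 at 8.87 CPM, Col7a1 at 2.21 CPM, Col13a1 at 2.14 CPM and Col24a1 at 2.04 CPM. The lowest was Col4a6, with 3 UMIs in the 4 libraries together. Among chains known from cartilage, Col2a1 had 19 UMIs in all, Col11a1 had 32, Col9a3 had 90, Col10a1 had 202 and Col11a2 had 275. Col1a1 encodes the more abundant chain of type I collagen, whose trimer holds more Col1a1 than Col1a2 product. In these cells its mRNA was the scarcer, at 5.33, 4.56, 11.4 and 14.2 CPM, against 61.7, 82.1, 85.7 and 74.9 CPM for Col1a2. In Myog-low cells, the ratio of Col1a1 to Col1a2 UMIs was 0.0703, 0.0507, 0.114 and 0.182. The 1% of cells highest in Col1a1, between 13 and 17 cells a library, held 30.8%, 53.9%, 63.5% and 56.6% of its UMIs. Of those 17, 13, 14 and 13 cells, 15, 10, 12 and 12 had a UMI of Pax7, 17, 12, 13 and 13 had one of Des, the muscle intermediate filament, and 3, 0, 1 and 1 had one of Dcn.

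The first comparison asked which chains differ between differentiating and undifferentiated cells of the same culture. Most of the abundant collagen chains were lower in Myog-high than in Myog-low cells, Col25a1 and Col19a1 were higher, and the scarce chains were mixed. The 4 libraries were the replicates, which differ in age and substrate, and limma was fitted to 8053 genes with library as a block. Of the 18 chain genes with a mean of at least 10 CPM over the 8 class values, 16 were lower and 2 were higher at an adjusted p under 0.05. Over all genes tested, 56.1% were lower and 25.4% were higher, so that the lower share of the chains has to be read against a background that is itself large. The median log2 ratio (Myog-high over Myog-low, CPM plus 5) was -2.49 over the 18 chains and -0.26 over all genes. With median-of-ratios scaling, which puts the median of all genes at 0.01, 3109 genes were lower and 3206 higher, against 4520 and 2048, and the chains stayed at 16 lower and 2 higher. Of the 18 chains too low to be tested, 7 were higher in Myog-high cells in all 4 libraries, and 4 were lower in all 4. The 7 were Col7a1, Col9a3, Col10a1, Col11a2, Col13a1, Col20a1 and Col23a1, listed after their values were seen. The share of all genes at such low levels that did so is not given here. These counts rest on few UMIs: Col9a3 had 0, 0.132, 0.125 and 0.223 CPM in Myog-low cells. With no filter, 20 of the 36 chains were lower and 9 higher by limma, and of 13737 genes 49.9% were lower and 23.1% higher, so that the counts over all chains lay near the background.

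All 6 fibrillar chains tested were lower in Myog-high cells, with a median log2 ratio of -2.73. Col3a1 had 32.5, 33.7, 73.3 and 81.0 CPM in Myog-high cells, against 354, 366, 472 and 486 CPM in Myog-low cells. Col1a2 had 26.5, 21.0, 13.1 and 15.7 CPM in Myog-high cells, against 259, 321, 206 and 169 CPM in Myog-low cells. For neither gene did the classes overlap, though the share of all genes without overlap is not given here. The limma log2 ratios were -2.91 ± 0.15 (SE, adjusted p = 6.25e-06) for Col3a1 and -3.33 ± 0.11 (SE, adjusted p = 1.81e-06) for Col1a2. Of the 3 tested pericyte and smooth muscle genes, Pdgfrb and Notch3 were also lower in Myog-high cells, with log2 ratios of -3.18 and -3.61. Acta2, the other one, was at 0.21 and did not pass. The part of these genes in the collagen differences was not tested. Type V collagen nucleates the fibrils of types I and III. Col5a2, its second chain, kept 36.7, 41.6, 33.4 and 34.5 CPM in Myog-high cells, against 182, 222, 198 and 224 CPM in Myog-low cells. Its log2 ratio was -2.35 ± 0.07. Col5a1, the main chain of type V, fell further, to 3.52, 2.73, 4.54 and 5.77 CPM in Myog-high cells, against 44.3, 45.1, 77.9 and 80.6 CPM in Myog-low cells. The log2 ratios of Col5a1, Col5a3 and Col1a1 were -2.84 ± 0.10, -2.62 ± 0.24 and -1.77 ± 0.25.

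The 4 basement membrane chains tested were all lower in Myog-high cells, with a median log2 ratio of -2.63. Col4a1 had 13.0, 12.9, 26.3 and 30.4 CPM in Myog-high cells, against 193, 194, 269 and 301 CPM in Myog-low cells. Col4a2, its partner in the common type IV trimer, had 6.59, 6.81, 9.90 and 10.95 CPM in Myog-high cells, against 96.6, 95.8, 116 and 128 CPM in Myog-low cells. Both genes fell by similar amounts, with limma log2 ratios of -3.29 ± 0.08 (SE, adjusted p = 9.53e-07) for Col4a1 and -3.08 ± 0.05 (SE, adjusted p = 6.72e-07) for Col4a2. In Myog-low cells the ratio of Col4a2 to Col4a1 UMIs was 0.497, 0.505, 0.429 and 0.418. These genes lie head to head and share a promoter, so their promoter sequences are shown. The 300-base windows around their starts (RefSeq, GRCm38.p6), chr8:11312777-11313076 on the minus strand for Col4a1 and chr8:11312555-11312854 on the plus strand for Col4a2, overlap by 78 bases, and the annotated starts are 21 bases apart. Capitals mark the shared bases, which read as reverse complements of each other.
Col4a1: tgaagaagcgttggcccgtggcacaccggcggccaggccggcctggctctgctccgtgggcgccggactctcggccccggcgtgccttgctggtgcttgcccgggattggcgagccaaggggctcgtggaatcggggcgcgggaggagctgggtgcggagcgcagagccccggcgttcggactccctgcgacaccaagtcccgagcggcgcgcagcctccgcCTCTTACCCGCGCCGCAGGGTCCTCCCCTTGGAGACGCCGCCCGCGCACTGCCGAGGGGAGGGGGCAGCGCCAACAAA
Col4a2: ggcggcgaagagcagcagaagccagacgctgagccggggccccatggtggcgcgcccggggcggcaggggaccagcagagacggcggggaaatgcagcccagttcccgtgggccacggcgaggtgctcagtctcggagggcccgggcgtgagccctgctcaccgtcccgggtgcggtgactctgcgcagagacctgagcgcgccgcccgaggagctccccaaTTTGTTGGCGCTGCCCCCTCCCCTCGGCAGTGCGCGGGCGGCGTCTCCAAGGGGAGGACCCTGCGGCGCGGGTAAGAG
Each window holds 1 CCAAT box (CCAAT on either strand), and the GC box GGGCGG occurs at 1 place in the Col4a1 and 3 places in the Col4a2 window. Of 14 chain genes with a promoter entry among the 18, 6 hold CCAAT, against 37.9% of 27025 promoters of this length, and 9 hold GGGCGG, against 35.9%. A match describes the letters only.

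Col18a1 and Col15a1 encode proteoglycan collagens of the basement membrane zone. Col18a1 had 3.08, 3.46, 4.77 and 4.01 CPM in Myog-high cells, against 30.3, 32.5, 40.1 and 37.3 CPM in Myog-low cells, a log2 ratio of -2.18 ± 0.05. Col15a1 was a gene of the young libraries. Its levels were 0.429, 0.278, 3.07 and 4.59 CPM in Myog-high cells, against 3.52, 2.99, 33.6 and 42.6 CPM in Myog-low cells. The limma log2 ratio was -1.45 ± 0.34 (adjusted p = 0.00681), and without the library block the adjusted p was 0.0513. Without the young stiff or the young soft library Col15a1 fell under the level set for testing.

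The 3 type VI chains fell together in Myog-high cells, with log2 ratios of -2.95 ± 0.09 for Col6a1, -2.73 ± 0.07 for Col6a2 and -2.78 ± 0.07 for Col6a3. Col6a1 had 13.6, 13.0, 15.8 and 19.7 CPM in Myog-high cells, against 162, 147, 152 and 150 CPM in Myog-low cells, so that its level in Myog-low cells barely varied. Col6a2 had 7.36, 8.63, 9.90 and 13.0 CPM in Myog-high cells, against 81.0, 77.8, 107 and 104 CPM in Myog-low cells. Col6a3, the long chain that completes the type VI trimer, did vary: it had 5.47, 6.80, 24.6 and 18.5 CPM in Myog-high cells, against 65.9, 67.03, 196 and 180 CPM in Myog-low cells. The ratio of Col6a3 to Col6a1 UMIs in Myog-low cells was 0.457 (0.409 to 0.511), 0.498 (0.446 to 0.556), 1.47 (1.39 to 1.55) and 1.33 (1.26 to 1.404). That of Col6a2 to Col6a1 was 0.497, 0.514, 0.715 and 0.697. Both ratios were lower in the aged libraries, and the intervals of aged and young libraries were apart. These intervals cover counting error only, with 1 library per group. Over both classes, the top 1% of cells held 29.9%, 30.1%, 14.8% and 15.4% of the Col6a3 UMIs.

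**Figure D2:**
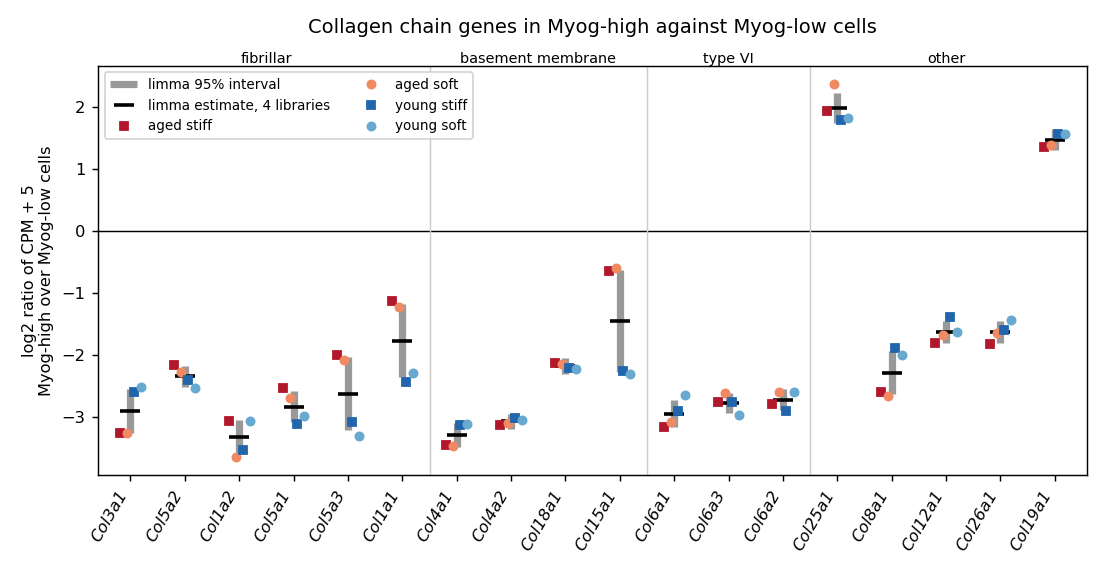
Log2 ratio of CPM plus 5 in Myog-high over Myog-low cells for the 18 chain genes tested, with 1 coloured point per library, the limma estimate (black bar) and its 95% interval (grey). All 4 libraries lie below 0 for 16 genes and above 0 for Col25a1 and Col19a1.

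Among the other chains, Col8a1, Col12a1 and Col26a1 were lower in Myog-high cells and Col25a1 and Col19a1 were higher. Col8a1, a chain of short network-forming collagen, had 27.8, 32.3, 43.2 and 40.9 CPM in Myog-high cells, against 194, 232, 173 and 178 CPM in Myog-low cells. Col12a1, which coats type I fibrils, had 29.9, 33.7, 25.4 and 25.3 CPM in Myog-high cells, against 117, 118, 74.7 and 88.7 CPM in Myog-low cells. Col26a1 had 6.95, 7.73, 14.3 and 15.1 CPM in Myog-high cells, against 37.4, 34.8, 53.3 and 49.6 CPM in Myog-low cells. The classes did not overlap for any of these 3 genes. The share of all genes without overlap is not given here, while 56.1% of all genes tested were lower in Myog-high cells. The log2 ratios were -2.29 ± 0.15 for Col8a1, -1.63 ± 0.07 for Col12a1 and -1.63 ± 0.07 for Col26a1. Col25a1 went the other way, with 110, 108, 152 and 155 CPM in Myog-high cells, against 25.0, 16.7, 40.0 and 39.9 CPM in Myog-low cells. Its log2 ratio was 1.99 ± 0.10 (SE, limma, adjusted p = 6.45e-06). Col19a1, a minor collagen needed for normal oesophageal muscle in mice, had 21.3, 18.4, 21.8 and 21.7 CPM in Myog-high cells, against 5.21, 3.93, 3.97 and 3.95 CPM in Myog-low cells. Its log2 ratio was 1.48 ± 0.07 (SE, limma, adjusted p = 4.67e-06), and all 4 libraries lay above 0 for both genes. Among the low chains, Col13a1, another transmembrane collagen, known at the neuromuscular junction, had 2.93, 2.96, 2.59 and 3.22 CPM in Myog-high cells, against 0.105, 0, 0.0969 and 0.124 CPM in Myog-low cells. It was too low to be tested.

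The promoters of the pair that was higher in Myog-high cells are shown because Myog and Myod1 bind E-boxes (CANNTG, the same on both strands by its form). Capitals mark each E-box in the 300-base windows (RefSeq, GRCm38.p6) at chr1:24587388-24587687 on the minus strand for Col19a1 and chr3:130180595-130180894 on the plus strand for Col25a1.
Col19a1: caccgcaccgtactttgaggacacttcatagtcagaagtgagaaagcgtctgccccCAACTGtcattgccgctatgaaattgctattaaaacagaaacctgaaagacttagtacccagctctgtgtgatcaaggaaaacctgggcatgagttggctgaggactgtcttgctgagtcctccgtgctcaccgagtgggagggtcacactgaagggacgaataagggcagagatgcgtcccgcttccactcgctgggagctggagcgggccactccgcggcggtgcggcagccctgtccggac
Col25a1: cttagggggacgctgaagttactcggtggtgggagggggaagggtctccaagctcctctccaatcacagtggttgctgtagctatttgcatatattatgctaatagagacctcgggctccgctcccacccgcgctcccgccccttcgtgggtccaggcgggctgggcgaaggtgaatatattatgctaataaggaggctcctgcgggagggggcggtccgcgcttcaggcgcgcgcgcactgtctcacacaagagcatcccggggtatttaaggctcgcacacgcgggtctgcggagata
Col19a1 holds 1 E-box and Col25a1 holds 0 in this window. Of the 14 matched chain genes, 6 hold an E-box, against 72.1% of 27025 promoters, and a window without one says only that these letters are not in it. No binding was measured.

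Genes that make, export and bind collagen were read against the 56.1% of all genes that were lower and the 25.4% that were higher in Myog-high cells. Of 17 tested enzymes that fold and cross-link collagen, 15 were lower, P4ha1 was higher at 0.38 and P4ha2 at -0.13 did not pass, with a median log2 ratio of -1.03. The lowest were the chaperone Fkbp10 (-2.23 ± 0.11), the cross-linking oxidases Loxl1 (-2.19 ± 0.06) and Lox (-2.01 ± 0.24), the prolyl 3-hydroxylase partner Crtap (-1.89 ± 0.05) and the collagen chaperone Serpinh1 (-1.87 ± 0.09). Of 10 tested export and processing genes, 7 were lower and Klhl12 and Mia3 were higher, at 0.20 and 0.15. Sec23a at 0.08 did not pass, and the median was -0.54, or -0.28 with median-of-ratios scaling. The share of export and processing genes that were lower is near that of all genes. The procollagen proteinase Bmp1 (-2.69 ± 0.08) and its enhancer Pcolce (-2.43 ± 0.14) were lowest, followed by the N-proteinase Adamts2 (-1.09 ± 0.08), the coat protein Sec24d (-0.67 ± 0.05) and the endoplasmic reticulum protein Tmem39a (-0.67 ± 0.09). Of 13 tested receptors and binding matrix genes, 11 were lower, Ddr1 was higher at 0.42 and Hspg2 at -0.20 did not pass, with a median of -1.20. Fibronectin (Fn1, -3.41 ± 0.05), biglycan (Bgn, -2.93 ± 0.11), the collagen-binding integrin chain Itga1 (-2.47 ± 0.14), the laminin chain Lamb1 (-2.002 ± 0.09) and nidogen (Nid1, -1.98 ± 0.08) were lowest. With median-of-ratios scaling the 3 lists had 15, 6 and 9 lower and 1, 3 and 1 higher members, and the signs of P4ha2, Hspg2 and Itgb1 turned. P4ha1, P4ha2, Klhl12, Mia3, Sec23a, Ddr1, Hspg2 and Itgb1 were named after their values were seen.

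Across the range of differentiation, the chains ended at different levels. Myog-low cells were divided by a UMI of the proliferation genes Mki67 or Top2a, and Myog-high cells into 4 equal parts by Acta1, skeletal muscle actin, within each library. In young cells on soft substrate, Col4a1 had 313 CPM in cycling and 281 CPM in other Myog-low cells, then 108, 7.91, 2.73 and 2.90 CPM in the 4 Acta1 parts from low to high. The other libraries gave the same shape, with 1.37 to 2.53 CPM of Col4a1 in the last part. Col6a1 likewise reached 0.297 to 1.62 CPM in the last part. Col3a1 ended at 9.98 to 13.8 CPM, and its lowest level came before the last part in every library. Col8a1 ended at 5.38 to 15.2 CPM. Col5a2 and Col12a1 also levelled off, and they ended higher. Over the last 3 parts, Col5a2 stayed between 22.3 and 39.5 CPM in aged and between 10.3 and 17.7 CPM in young libraries. Col12a1 stayed between 23.0 and 33.0 CPM in aged and between 17.4 and 24.5 CPM in young libraries. Col25a1 peaked in the second Acta1 part, at 143, 148, 205 and 240 CPM, and stood at 87.0, 71.4, 129 and 137 CPM in the last part. Col19a1 peaked in the second part in 3 libraries and in the third part in young cells on stiff substrate. Col1a1 was highest in Myog-low cells without Mki67 and Top2a, at 15.6, 14.3, 48.2 and 59.3 CPM, against 12.1, 10.7, 13.8 and 16.6 CPM in cycling ones. These levels rest on few cells, since the top 1% of each library held 30.8%, 53.9%, 63.5% and 56.6% of the Col1a1 UMIs.

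**Figure D3:**
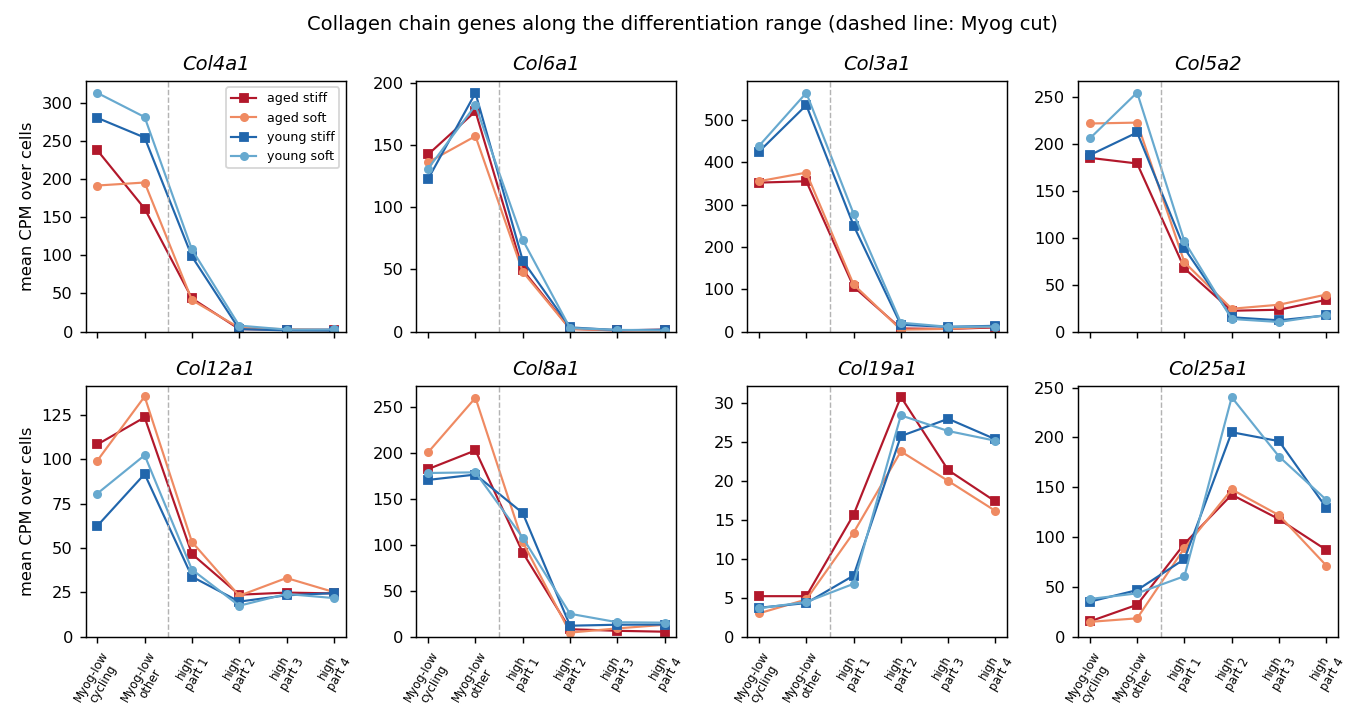
Mean CPM over cells of 8 chain genes in 6 ranges from cycling Myog-low cells to the Myog-high cells highest in Acta1, with 1 line per library and the dashed line at the Myog limit. Col4a1 and Col6a1 end under 3 CPM, Col5a2 and Col12a1 level off above 10 CPM, and Col19a1 and Col25a1 are highest in the later parts.

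The share of cells with a UMI followed the levels. With every cell thinned to 10000 UMIs, which left out 2, 11, 11 and 7 cells, Col3a1 was found in 15.7%, 15.2%, 24.9% and 28.1% of Myog-high cells, against 83.6%, 86.2%, 94.8% and 96.5% of Myog-low cells. Unthinned, the Col3a1 shares were 29.8%, 30.4%, 38.2% and 43.2%, against 91.6%, 94.5%, 98.6% and 99.0%. Thinned, Col25a1 was found in 50.4%, 49.4%, 61.2% and 59.3% of Myog-high cells, against 18.3%, 11.9%, 27.5% and 27.4% of Myog-low cells, with unthinned shares of 76.1%, 74.1%, 81.2% and 82.3%, against 30.8%, 22.5%, 45.5% and 50.6%. No class of cells that should lack collagen was available, so the UMIs that free RNA adds could not be measured. Across Myog-low cells, the chains above 50 CPM formed 28 pairs. The pair with the highest mean correlation was Col3a1 and Col6a1, with Pearson's r of 0.56, 0.43, 0.32 and 0.35 over cells that share library, depth and scaling. Col25a1 with Col1a2 was the lowest, at -0.24, -0.23, -0.12 and -0.16.

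The comparison of ages asked how aged cells differ from young ones on the same substrate. Most of the 16 chains were lower in the aged libraries, and fewer of them passed the fold within either Myog class. On soft substrate 10 of the 16 chains were at least 1.5 times lower in aged than in young cells and 0 were as much higher, while 9.83% of all 7837 genes were lower and 2.58% higher. On stiff substrate 12 were lower and 0 higher, while 11.3% of all genes were lower and 2.85% higher. The median log2 ratio of the chains was -0.80 on soft and -0.98 on stiff substrate, against -0.13 and -0.13 over all genes. The 10 lower on soft substrate were Col3a1, Col5a1, Col5a3, Col4a1, Col4a2, Col18a1, the 3 type VI chains and Col26a1, and on stiff substrate Col5a2 and Col8a1 joined them. With median-of-ratios scaling 9 were lower on soft and 11 on stiff substrate. Without the cells holding 3 or more fibroblast genes, 10 and 12 were lower. The shares of all genes passing under these alternatives are not given here. The pericyte genes Pdgfrb and Notch3 were lower too, with log2 ratios of -0.59 and -1.09 on soft and -1.04 and -1.24 on stiff substrate. In Myog-low cells these ratios were 0.09 and -0.39 on soft and -0.17 and -0.26 on stiff substrate. Acta2, the other tested gene of the pericyte and smooth muscle list, did not pass the fold. Over all cells its log2 ratio was -0.03 on soft and -0.25 on stiff substrate. The part of these genes in the collagen differences was not tested.

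Within Myog classes fewer chains passed the same fold. The classes themselves were not alike in the ages: 8 genes of differentiating muscle summed to 3236 and 2239 CPM in aged Myog-low cells on stiff and soft substrate, against 427 and 632 CPM in young ones, and their part in the differences below was not tested. The 6 immune genes summed to between 6.65 and 7.89 CPM in the aged and between 0.967 and 2.64 CPM in the young classes. Most of this gap was Lyz2, at 4.79 to 6.78 CPM in the aged and 0.125 to 0.420 CPM in the young classes. Cd68 went the other way in Myog-low cells, at 0.737 and 0.965 CPM in aged and 2.45 and 1.98 CPM in young ones. In Myog-low cells on soft substrate 5 chains were lower and Col1a2 was higher, against 4.12% lower and 3.33% higher of all genes. In Myog-low cells on stiff substrate 4 were lower and Col12a1 was higher, against 3.79% and 4.19% of all genes. The log2 ratio of Col12a1 there was 0.62, and without cells holding 3 or more fibroblast genes it was 0.58, just under the fold. In Myog-high cells on soft substrate 4 were lower and 0 higher, against 6.00% and 1.97% of all genes. On stiff substrate 4 were lower and Col1a2 was higher, against 5.30% and 1.72% of all genes, and with summed UMIs Col1a2 did not pass (0.54). When each aged library was weighted to the young library's share of Myog-high cells, 4 chains were lower on soft and 3 on stiff substrate. The share of all genes passing the fold after weighting is not given here. The median log2 ratio of the chains was then -0.40 on soft and -0.34 on stiff substrate, and that of all genes was -0.08 and -0.07. Col6a1, at -0.73 on soft and -0.81 on stiff substrate over all cells, was at -0.11 and 0.05 after weighting.

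**Figure D4:**
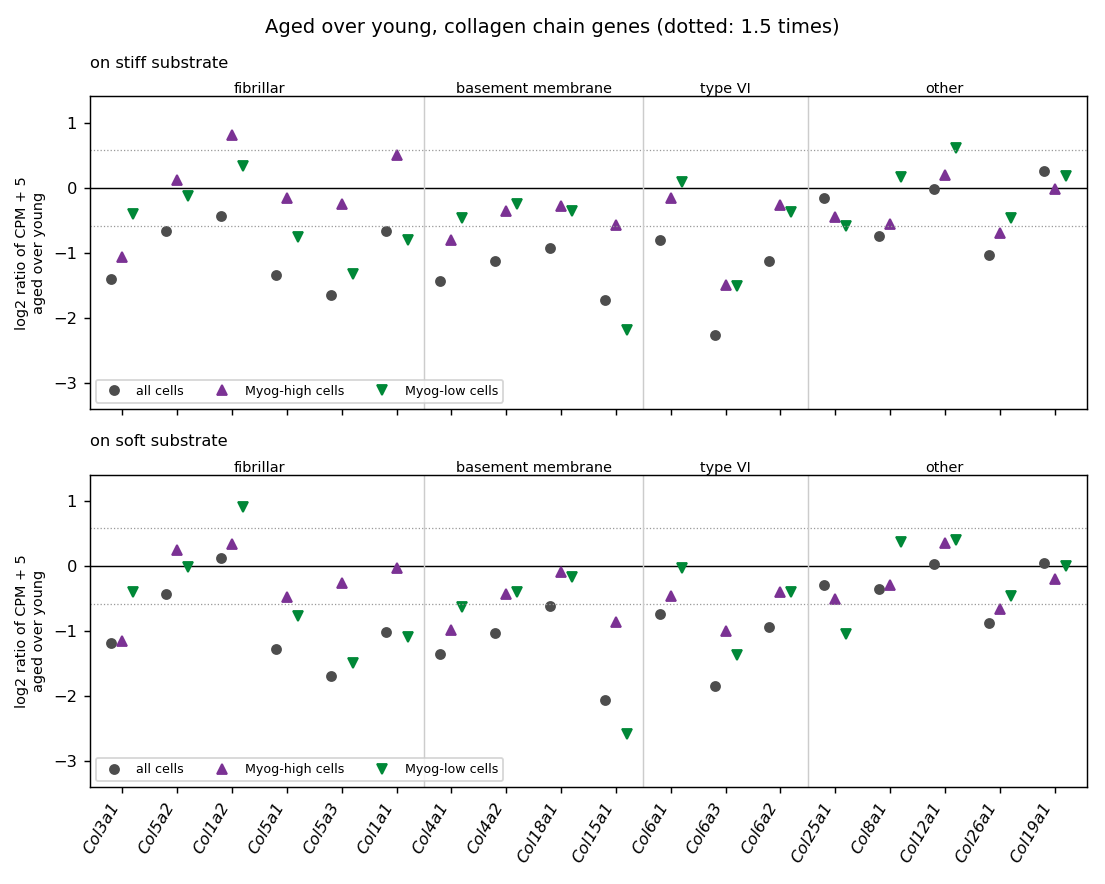
Log2 ratio of CPM plus 5, aged over young, on stiff (top) and soft (bottom) substrate, for all cells (circles), Myog-high cells (triangles up) and Myog-low cells (triangles down). Most circles lie below the dotted line at 1.5 times lower, and within classes most points lie between the dotted lines, with Col6a3 below them in both classes on both substrates.

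Of the 16 chains, Col5a3 and Col6a3 had the lowest ratios of aged to young in Myog-low cells on both substrates. Col6a3 was found at 14.6 CPM in aged and 89.4 CPM in young cells on stiff substrate, and at 19.0 CPM in aged and 81.1 CPM in young cells on soft substrate. In Myog-low cells the log2 ratio of Col6a3 was -1.51 on stiff and -1.36 on soft substrate, with ratios of summed UMIs of 0.330 (0.299 to 0.364) and 0.374 (0.340 to 0.412). Weighted to equal shares, its log2 ratio was -1.505 on stiff and -1.29 on soft substrate. Col5a3, a chain of a rarer type V form, had 17.7 CPM in aged and 52.3 CPM in young Myog-low cells on stiff, and 18.2 CPM in aged and 60.2 CPM in young ones on soft substrate. The log2 ratios were -1.33 and -1.49, and 0.321 (0.261 to 0.393) and 0.309 (0.254 to 0.373) were the ratios of summed UMIs. Col15a1, whose mean lay under 10 CPM, differed more widely still: its ratio of summed UMIs in Myog-low cells was 0.0886 (0.0528 to 0.140) on stiff and 0.0677 (0.0399 to 0.108) on soft substrate.

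In Myog-high cells the lower chains were Col3a1, Col4a1, Col6a3 and Col26a1 on both substrates. Col3a1 had 32.5 CPM in aged and 73.3 CPM in young Myog-high cells on stiff substrate, and 33.7 CPM in aged and 81.0 CPM in young ones on soft substrate, log2 ratios of -1.06 and -1.15. In the lowest Acta1 part, Col3a1 had 106 and 111 CPM in the aged and 251 and 279 CPM in the young libraries. Mki67 in that part was at 52.7 and 28.3 CPM in the aged and 195 and 166 CPM in the young libraries, and whether this bears on Col3a1 was not tested. Col25a1 went against this order. Its log2 ratio of aged to young was -0.17 on stiff and -0.29 on soft substrate over all cells, and further from 0 within both classes, at -0.45 and -0.51 in Myog-high cells and at -0.59 and -1.05 in Myog-low cells. Col19a1 and Col12a1 did not pass the fold over all cells, with log2 ratios of 0.25 and -0.03 on stiff and 0.04 and 0.03 on soft substrate.

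Col1a2 had ratios above 0 within both Myog classes. In Myog-low cells it had 259 CPM in aged and 206 CPM in young cells on stiff, and 321 CPM in aged and 169 CPM in young cells on soft substrate, log2 ratios of 0.33 and 0.91. In Myog-high cells the log2 ratios were 0.80 on stiff (0.54 with summed UMIs, under the fold) and 0.33 on soft substrate. Over all cells they were -0.44 and 0.13, and weighted to equal shares 0.40 and 0.83. Its UMIs were unevenly spread, since the top 1% of cells held 21.9%, 26.4%, 24.7% and 26.3% of them. Among other cell types' markers, Thy1 also stood higher in aged Myog-low cells, at 40.1 and 48.3 CPM, against 7.44 and 7.73 CPM in young ones. Gsn stood at 402 and 405 CPM in aged and at 245 and 234 CPM in young Myog-low cells. Dpt went the other way, at 2.90 and 0.370 CPM in aged and at 13.5 and 14.8 CPM in young Myog-low cells, and Dcn was at 3.45 and 5.50 CPM in aged and at 2.09 and 2.17 CPM in young ones. Their part in the Col1a2 difference was not tested.

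Collagen enzymes were also lower in part over all cells. Of the 17 tested folding and cross-linking enzymes, 6 were at least 1.5 times lower in aged cells on soft and 9 on stiff substrate, and 0 were higher, while 9.83% and 11.3% of all genes were lower. Weighted to the young share of Myog-high cells, an alternative chosen after seeing the data, 3 were lower on soft and 5 on stiff substrate. The share of all genes passing with this weighting is not given here. Of 9 export and processing genes none was 1.5 times higher or lower on either substrate, and of 12 receptors and binding matrix genes 4 were lower on each, or 1 on each after weighting. The median log2 ratios of the 3 lists were -0.38, -0.07 and -0.43 on soft and -0.67, -0.04 and -0.40 on stiff substrate.

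The last comparison asked what the stiffer substrate changed within each age. No chain reached 1.5 times in either direction. Of all genes, 0.115% were higher and 0.0638% lower in aged cells, and 0.0255% were higher and 0.140% lower in young cells, so few genes of any kind passed this fold. In aged cells 14 of the 16 chains lay below 0, against 64.0% of all genes. The median log2 ratio of stiff over soft was -0.24 for the chains, against -0.04 over all genes. The lowest chain was Col8a1 at -0.43, with 53.0 CPM on stiff and 72.9 CPM on soft substrate. In young cells 11 of the 16 chains lay below 0, against 60.4% of all genes. Their median was -0.05, against -0.03 over all genes. Within Myog-low cells the medians were -0.02 in aged and -0.02 in young cells. Within Myog-high cells they were -0.04 in aged and -0.05 in young cells. The Myog-high share was 84.9% on stiff and 79.7% on soft substrate in aged cells, and weighted to the soft share the median of the chains in aged cells was -0.01.

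**Figure D5:**
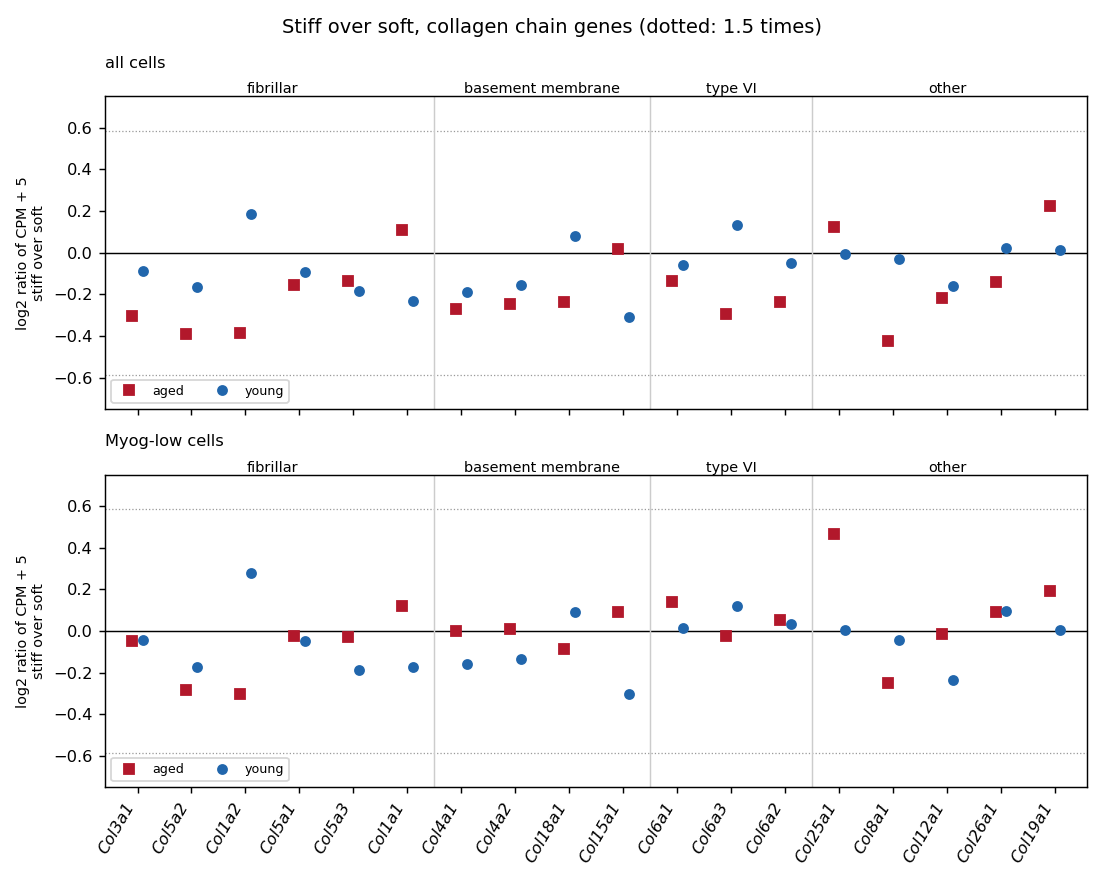
Log2 ratio of CPM plus 5, stiff over soft, for aged (squares) and young (circles) libraries, over all cells (top) and over Myog-low cells (bottom). No point reaches the dotted lines at 1.5 times, most aged squares lie below 0 over all cells and around 0 in Myog-low cells, and Col1a2 is below 0 in aged and above 0 in young cells in both panels.

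Col1a2 and Col6a3 had opposite signs in the 2 ages. Col1a2 had 61.7 CPM on stiff and 82.1 CPM on soft substrate in aged cells, and 85.7 CPM on stiff and 74.9 CPM on soft substrate in young cells. Its ratio of summed UMIs, stiff over soft, was 0.706 (0.670 to 0.743) in aged and 1.15 (1.10 to 1.21) in young cells, and 0.744 (0.698 to 0.792) and 1.23 (1.16 to 1.29) within Myog-low cells. Within Myog-high cells the signs turned round, at 1.32 (1.196 to 1.45) in aged and 0.907 (0.788 to 1.04) in young cells. Col6a3 had 14.6 CPM on stiff and 19.0 CPM on soft substrate in aged cells, and 89.4 CPM on stiff and 81.1 CPM on soft substrate in young cells. Its ratio of summed UMIs was 0.732 (0.658 to 0.813) in aged and 1.10 (1.05 to 1.15) in young cells. With 1 library per group these intervals hold no spread between cultures.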

How the data were processed

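Per the labels' protocols, libraries were made with version 3 of the 10x Chromium Single Cell 3' kit. The tools listed, per the submitters' processing notes, are Partek and Cell Ranger 6.1.2, and no role is given for either. The build of the genome, annotation and cell filters are not given in the sources used here. The tables the authors deposited hold log2(CPM + 1) per cell for 13772 genes, a unit found from the values. Whole UMIs were recovered from the steps between values: 99.953% to 99.956% of values above 0 were whole within 0.05, and no collagen gene was among the exceptions. They served for depth, thinning, intervals and UMI ratios.

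A cell was kept if it had 500 genes or more and no more than 20% of its counts from mitochondrial genes, and doublets were not removed. Mean CPM over cells was compared as log2 ratios with a pseudocount of 5, which understates differences of low genes. Library comparisons used genes with a mean of at least 10 CPM (7837) and a fold of 1.5, with no test. The Myog contrast used limma 3.58.1 in R 4.3.3 (lmFit, eBayes with trend, Benjamini-Hochberg adjustment, 3 residual degrees of freedom) on 8 class means, and it was tested on simulated data. Ratios of summed UMIs have exact conditional binomial intervals, and shares exact binomial ones. Because cells differ in depth, a ratio of summed UMIs can differ from the ratio of mean CPM.

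Every chain of at least 10 CPM is named, with the 5 highest of the rest and up to 5 genes of each further list by their Myog contrast. Col2a1, Col4a6, Col9a3, Col10a1, Col11a1 and Col11a2, and the values given for markers of other cell types, were chosen after seeing the data. The chains and lists were chosen with earlier results of these data known. Alternatives covered the pseudocount, filters, scaling, summed UMIs, the Myog limit, and leaving out cells with fibroblast genes, few mitochondrial counts or the top 5% of UMIs. Computation used Python 3.11.15, numpy 2.4.6, pandas 2.3.3 and scipy 1.17.1.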

Additional observations from a re-analysis of the deposited data

Results flagged for a closer look

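The difference in Col1a2 between the stiff and soft libraries had opposite signs in the ages. The counting interval of each age excluded equal levels, but it holds no spread between cultures. The log2 ratio of stiff over soft was -0.38 in aged and 0.18 in young cells, a difference of -0.57. Col6a3 had -0.29 in aged and 0.13 in young cells, a difference of -0.43. Neither difference was tested, since each of the 4 values rests on 1 library. Within Myog-low cells the difference was -0.58 for Col1a2 and -0.14 for Col6a3. Within Myog-high cells it was 0.47 for Col1a2, of the other sign, and -0.50 for Col6a3.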

How the results depend on the processing

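Of 255 recomputed counts, 247 stayed within 1.5 times of the reported one, with a count of 0 that stayed at 0 scored as within. Among these counts, all those between stiff and soft substrate were reported as 0, so the 247 partly reflects counts with little room to move. Of the recomputed values of single chains, 1944 were labelled the same, 114 moved, 1 reversed and 1 weaker. Over whole libraries 544 were labelled the same, 95 moved and 1 reversed. Weighting aged libraries to the young share of Myog-high cells moved the chains lower in aged cells to 4 on soft (10 reported) and 3 on stiff substrate (12 reported), those higher on soft to 1 (0 reported), and Col6a1 on stiff to a log2 ratio of 0.0513. Within Myog-high cells on soft substrate 7 chains were lower with a pseudocount of 1 (4 reported). The shares of all genes passing with this weighting or this pseudocount are not given here. Within Myog-low cells on stiff substrate 0 were higher without cells holding fibroblast genes (Col12a1 reported), and within Myog-high cells 0 with summed UMIs (Col1a2 reported). Thinned to 2000 UMIs, 8 chains were found in at least 10% of cells of a library (17 at 10000). Without a filter, 9 chains were higher and 20 lower in Myog-high cells, of 36 tested, against 23.1% and 49.9% of 13737 genes. Leaving out each library in turn gave 15 to 16 lower and 2 to 2 higher chains, of 17 to 18 tested. Of the 8003 to 8093 genes tested there, 4241 to 4354 were lower and 1873 to 1960 higher. Col15a1 was not tested without either young library. The Myog contrast pairs the classes of each library. Without that library block 15 of 18 chains were lower and 2 higher, against 4176 and 1848 of 8053 genes. Between ages or substrates no such pairing exists. No paired analysis was possible because each of these groups holds 1 library.

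With 1 library per age and substrate, culture, mouse and library cannot be told apart from age or stiffness. The Myog contrast has 4 libraries, and its p-values measure spread between them. Myog-high cells were deeper than Myog-low cells, and 3' counts of low chains rest on few UMIs.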
